A study of Mus musculus with 2 samples.

Results

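The genes described here are the keratins of the hair shaft and its root sheaths, together with a cadherin, a receptor, a ligand and the transcription factors of hair formation. They were taken by name from a list of 35 genes, using the gene symbols of the array's probes, and 33 of the 35 had a probe of their own among the 22180 genes measured. The list was chosen with earlier results of these data known, so its comparison with all genes is a description only. Krt85, a keratin gene of the hair matrix and cuticle, was not analysed here, and Msx1 was represented by 2 probes that also carry another gene's symbol, so it is not described. RNA from the back skin of 13-week-old females of NC/Nga, an inbred mouse strain that develops dermatitis readily, had been hybridised to Affymetrix arrays. The ZAG group had mite-induced dermatitis and received recombinant ZAG (zinc-alpha-2-glycoprotein, a secreted lipid-mobilising protein) on the skin at 1 µg/mL, and the control group had the same dermatitis without ZAG. In both groups a Dermatophagoides farinae ointment was applied 2 times a week for 6 weeks, starting from mice of 6 weeks of age, and ZAG was given on the same schedule. The design text names 3 mice per group, but the values used here are 1 column per group, and the sources used here do not say whether a column is 1 mouse or a pool. Each difference below therefore compares 2 arrays, has no replicate error and was not tested.

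The hair shaft is built from keratin filaments, each made of type I and type II keratins in pairs. Cells of the matrix at the base of the follicle divide, move upward and differentiate into the medulla, cortex and cuticle of the shaft and into the inner root sheath that moulds it, while the companion layer separates that sheath from the outer root sheath. Each layer makes its own keratins, and most of this programme runs in the growing follicle. Wnt signalling through Lef1 and the factors Msx2, Foxn1 and Hoxc13 are known to control shaft keratin genes, whereas Gata3 is known for the inner root sheath.

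Values are log2 expression values as deposited, and differences are ZAG minus control. Background was gauged by 1390 olfactory and vomeronasal receptor genes, of which 95% had a mean level below 3.16. Over all genes the median difference was 0.01, and 591 genes with several probes, all at or above the median level, gave a pooled SD of 0.26 between the differences read by probes of one gene. This SD reflects the probes and says nothing of the spread between mice.

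The skin of the ZAG array had higher values for nearly the whole set. Of the 33 genes, 32 were higher in the ZAG array, against 51.8% of all genes, and 1, Foxn1, was marginally lower. The count of 32 includes Shh, which was below background on both arrays. Among the 32 genes above background, 31 were higher, against 52.4% of all genes above background on at least 1 array. The median difference of the 33 genes was 0.48, a fold of 1.40, and that of the 32 above background was 0.50. At least 1.5-fold higher values (a log2 difference of 0.58) were seen for 11 of the 33 genes, against 2.21% of all genes and 2.63% of the 14055 genes above background on at least 1 array, and none of the 33 was 1.5-fold lower, against 3.64%. At least 2-fold higher values were seen for 1 of them, Krt26, against 0.207%. In 26 of the 32 genes above background the difference exceeded the SD between probes of a gene, counting Foxq1, whose 2 probes disagree. The share of all genes past that SD was not computed, so this count has no background beside it. Differences of all genes above background on at least 1 array had an SD of 0.35. In bulk skin, more cells of a type and more RNA per cell cannot be told apart, and here neither can the treatment and any difference between the sampled pieces of skin.

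**Figure D1:**
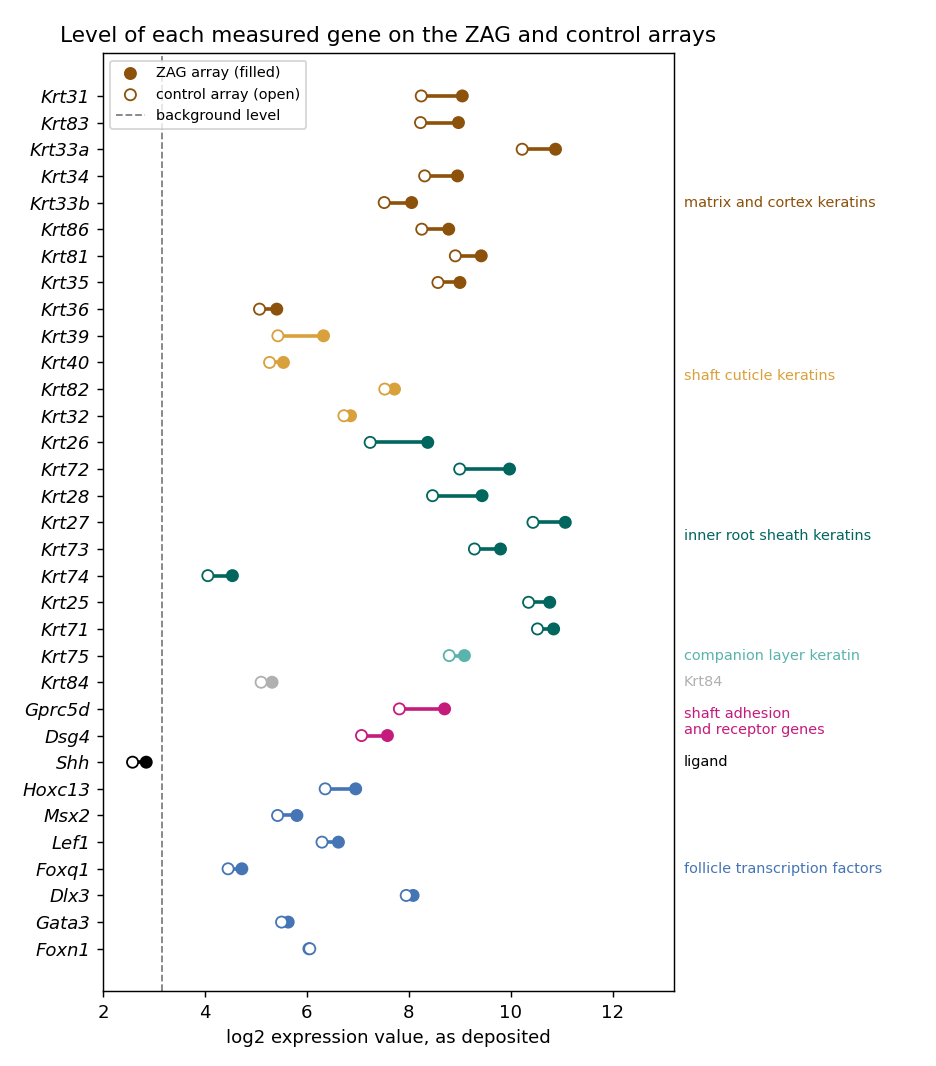
Log2 expression values (x axis) of the 33 measured genes (rows, grouped by site of expression or role and coloured by group) on the ZAG array (filled) and the control array (open), with the background level of 3.16 as a dashed line. The filled point lies right of the open one in 32 rows, Shh lies left of the dashed line on both arrays, and positions of different genes are not comparable because each probe set has its own response.

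The 3 largest differences of the set were in inner root sheath keratins. All 8 of the class were higher in the ZAG array, with a median difference of 0.57 and a range from 0.32 to 1.13, and 4 were at least 1.5-fold higher. Krt26, a type I keratin known in humans from the cuticle of the inner root sheath, was at 8.37 in the ZAG array and 7.24 in the control array, 2.19-fold higher. Krt72, a type II keratin of the same human layer, was at 9.98 with ZAG and 9.00 in control, 1.97-fold higher. Krt73, a further type II keratin of that layer, was at 9.80 with ZAG and 9.29 in control, a difference of 0.51. These 3 sheath-cuticle keratins had a median difference of 0.98, and the other 5 had a median of 0.48.

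The keratins found through all layers of the inner root sheath differed less evenly. Krt28, a type I member, was at 9.44 in the ZAG array and 8.47 in the control array, 1.96-fold higher. Krt27, a type I keratin whose mouse mutation gives a wavy coat, was at 11.07 with ZAG and 10.44 in control, 1.55-fold higher. Krt25, the remaining type I member, was at 10.76 with ZAG and 10.35 in control, a difference of 0.42. Their type II partner Krt71, mutated in the curly-coated Caracul mouse, was at 10.84 with ZAG and 10.52 in control, and its difference of 0.32 was the smallest of the class. Krt74, which in humans is a keratin of Huxley's layer, was at 4.54 with ZAG and 4.06 in control. In the mouse RefSeq table (GRCm38.p6) Krt74 is a transcribed pseudogene, so its value does not stand for a keratin protein. Among these sheath keratins the 4 type I genes had a median difference of 0.80 and the 4 type II genes one of 0.50.

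Keratins of the matrix and cortex, the bulk of the shaft, were also higher throughout. All 9 measured members were higher, with a median of 0.54 and a narrower range of 0.34 to 0.81, and 4 were at least 1.5-fold higher. Among the type I cortex keratins, Krt31 was at 9.05 in the ZAG array and 8.24 in the control array, 1.75-fold higher. Krt33a was at 10.88 with ZAG and 10.22 in control, 1.57-fold higher. Krt34 was at 8.95 with ZAG and 8.31 in control, 1.56-fold higher. Krt33b, the near neighbour of Krt33a, was just short of the 1.5-fold line at 8.05 with ZAG and 7.52 in control (0.54). Of the type II cortex keratins, Krt83 was at 8.97 with ZAG and 8.23 in control, 1.67-fold higher, while Krt86 differed by 0.53 and Krt81 by 0.51. Krt35, an early type I keratin of the matrix and precortex, was at 9.00 with ZAG and 8.57 in control (0.43). Krt36, which in humans is found in hair, nail and tongue papillae, was at 5.41 with ZAG and 5.07 in control (0.34). These genes are close family copies and the probes' specificity was not examined here, so single values within Krt31, Krt33a, Krt33b and Krt34, and within Krt81, Krt83 and Krt86, are uncertain. In the reference table Krt83 and Krt86 share an older clone name.

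The shaft cuticle keratins had a lower median than both of those classes, with 1 exception. All 4 were higher in the ZAG array and their median was 0.23. Krt39, a type I keratin, was at 6.33 with ZAG and 5.43 in control, 1.86-fold higher and the fourth largest difference of the whole set. Krt32, a type I cuticle keratin, was at 6.86 with ZAG and 6.73 in control (0.13). Krt82, the type II keratin of the cuticle, was at 7.72 with ZAG and 7.53 in control (0.19). Krt40, a further type I member, was at 5.54 with ZAG and 5.27 in control (0.27). The differences of Krt32 and Krt82 were within the SD between probes of a gene. The median of the cuticle class was 0.34 below that of the inner root sheath class, while the matrix and cortex median was 0.04 below it. With 4 genes the cuticle median depends on how they are summarised, since Krt39 brings their mean to 0.37.

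The keratins outside these classes, Krt75 and Krt84, were higher in the ZAG array but short of the 1.5-fold line. Krt75, the type II keratin of the companion layer, was at 9.09 in the ZAG array and 8.79 in the control array, a difference of 0.30. Krt84, a hair-type keratin known in humans from the tongue, was at 5.32 with ZAG and 5.10 in control, a difference of 0.22.

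**Figure D2:**
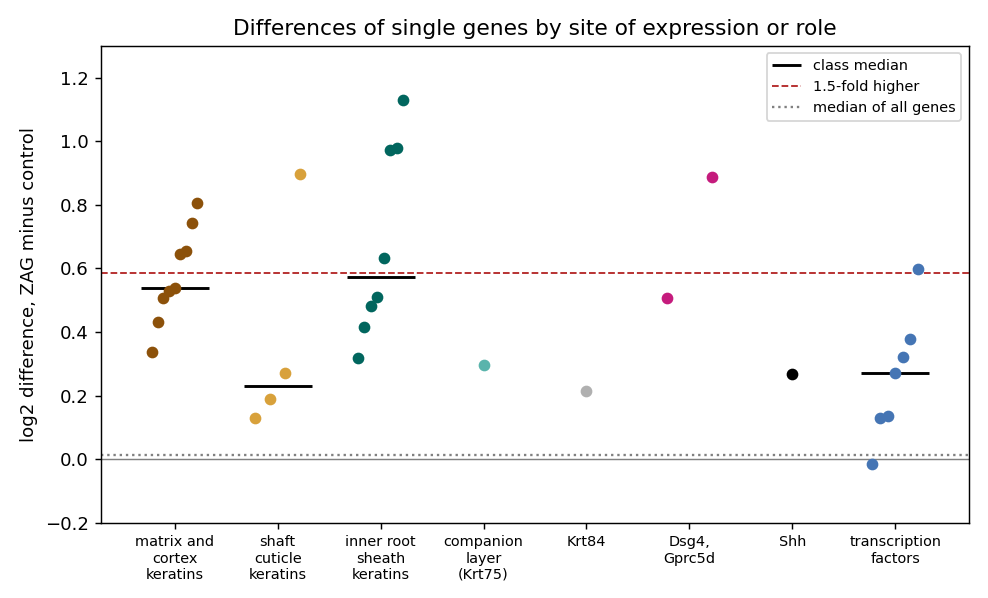
Log2 difference, ZAG minus control (y axis), of each measured gene (points) by site of expression or role (x axis), with class medians as black bars where a class holds more than 2 genes, the 1.5-fold line dashed in red and the median of all genes dotted. Medians are 0.54 for matrix and cortex, 0.23 for shaft cuticle and 0.57 for inner root sheath keratins and 0.27 for transcription factors.

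Read by filament type, the 13 type I keratins had a median difference of 0.63 with 7 at least 1.5-fold higher. The 10 measured type II keratins had a median of 0.50 with 2 at least 1.5-fold higher, Krt72 and Krt83. The gap between these medians was 0.14 as deposited and 0.07 after quantile normalization. The type I genes lie together on mouse chromosome 11 and the type II genes on chromosome 15. Along chromosome 11, the sheath genes Krt25 to Krt28 and then Krt39 lie at one end of the order, and 4 of those 5 were past the 1.5-fold line. The run of Krt33a, Krt33b, Krt34 and Krt31 gave 0.54 to 0.81 and ended at Krt32, the smallest keratin difference of all (0.13). Along chromosome 15, Krt84, Krt82, Krt75 and Krt71 were adjacent among the listed genes and all were at 0.32 or less, between the cortex genes on one side and Krt74, Krt72 and Krt73 on the other.

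**Figure D3:**
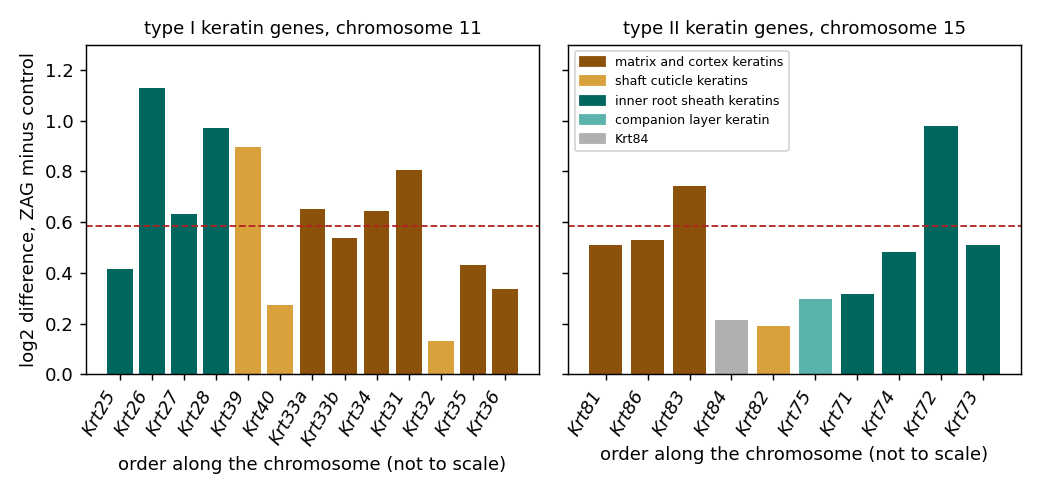
Log2 difference, ZAG minus control (bars, y axis), of the type I genes on chromosome 11 and the type II genes on chromosome 15 in their order along the chromosome (x axis, not to scale), coloured by layer, with the 1.5-fold line dashed. Krt26, at 1.13, and Krt32, at 0.13, are the extremes and both lie on chromosome 11.

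The promoters of the shaft keratins are shown because 4 neighbouring type I genes, from Krt33b to Krt32, share an arrangement of short motifs yet span differences from 0.13 to 0.81. The sequences are RefSeq's, from the C57BL/6J reference (GRCm38.p6), not from NC/Nga mice. They run 5′ to 3′ on the gene's strand, which is the minus strand for every gene shown, over the 250 bases before the start of transcription. For the members, promoters on a single chromosome, which holds none of the measured keratins, were left out. Promoters on other chromosomes without a measured keratin, such as those of Lef1 and Gprc5d, were kept. Of the measured and unmeasured members, 23 then had a promoter in the table, 17 of them keratins. Capitals mark CTTTGAA, the core of the site known for Lef1 in hair keratin promoters, TTTATG, a form of the site known for Hoxc13, and TATAAA, the letters of a TATA box. Every match is marked, on either strand and at any position, so not all marked TATAAA stretches lie where a TATA box is found: the match in Krt72 is on the opposite strand, 203 bases before the start, and Krt26 and Krt32 each hold a further one, 158 and 88 bases before it. Krt31, Krt34, Krt33b and Krt32 come first, and then Krt26 and Krt72, which had the largest differences.
Krt31 (chr11:100050552-100050801): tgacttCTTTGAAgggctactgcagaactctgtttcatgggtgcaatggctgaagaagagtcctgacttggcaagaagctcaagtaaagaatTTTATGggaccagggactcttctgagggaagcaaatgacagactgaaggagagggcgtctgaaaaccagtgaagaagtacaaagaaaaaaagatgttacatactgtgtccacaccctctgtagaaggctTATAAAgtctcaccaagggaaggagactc
Krt34 (chr11:100041555-100041804): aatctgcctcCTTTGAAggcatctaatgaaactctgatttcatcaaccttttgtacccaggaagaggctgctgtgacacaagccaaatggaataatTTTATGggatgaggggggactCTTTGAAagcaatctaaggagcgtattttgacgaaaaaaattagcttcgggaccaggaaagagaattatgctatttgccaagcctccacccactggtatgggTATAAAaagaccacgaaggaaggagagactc
Krt33b (chr11:100029869-100030118): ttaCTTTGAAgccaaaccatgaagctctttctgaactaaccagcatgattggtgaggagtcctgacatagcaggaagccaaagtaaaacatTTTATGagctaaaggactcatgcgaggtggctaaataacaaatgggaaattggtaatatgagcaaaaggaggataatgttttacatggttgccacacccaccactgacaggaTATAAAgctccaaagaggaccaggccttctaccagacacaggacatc
Krt32 (chr11:100088270-100088519): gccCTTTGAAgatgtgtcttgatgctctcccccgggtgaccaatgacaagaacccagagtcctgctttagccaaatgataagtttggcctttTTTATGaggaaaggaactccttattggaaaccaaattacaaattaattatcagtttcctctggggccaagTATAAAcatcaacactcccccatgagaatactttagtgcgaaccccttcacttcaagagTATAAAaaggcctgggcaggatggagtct
Krt26 (chr11:99337966-99338215): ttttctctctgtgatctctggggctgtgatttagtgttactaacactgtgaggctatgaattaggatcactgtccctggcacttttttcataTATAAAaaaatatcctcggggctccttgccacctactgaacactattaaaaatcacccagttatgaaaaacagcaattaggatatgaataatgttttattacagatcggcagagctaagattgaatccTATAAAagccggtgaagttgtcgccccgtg
Krt72 (chr15:101786521-101786770): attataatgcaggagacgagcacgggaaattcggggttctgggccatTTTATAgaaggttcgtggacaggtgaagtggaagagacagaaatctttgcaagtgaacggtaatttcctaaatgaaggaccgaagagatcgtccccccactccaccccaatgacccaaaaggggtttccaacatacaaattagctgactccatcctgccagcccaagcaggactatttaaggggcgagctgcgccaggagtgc

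Promoter windows of 300 bases, 250 before the start of transcription and 50 after it, were searched on both strands. CTTTGAA was in 6 of the 17 keratin promoters (35.3%), against 5.14% of all 32851 promoters in the table. The genes were Krt28, Krt39, Krt33b, Krt34, Krt31 and Krt32. In Krt28 the match lay 14 bases after the start of transcription, and in Krt39 on the opposite strand, 19 bases before it. Krt28 and Krt39 had the largest differences of the 6, 0.97 and 0.90. TTTATG was in 10 of the 17 (58.8%), against 11.9% of all promoters, and TATAAA in 13 (76.5%), against 13.6%. On the gene's own strand and within 50 bases before the start, TATAAA was in 11 of the 17. In Krt31, Krt34, Krt33b and Krt32, a CTTTGAA began 240 to 247 bases before the start of transcription and TTTATG 154 to 159 bases before it. Neighbouring promoters of one family share descent and are not independent. The TTTATG motif was chosen after the sequences had been read. The 6 keratin genes with CTTTGAA had a median difference of 0.72 and a range from 0.13 to 0.97, and the 11 without it a median of 0.34 and a range from 0.19 to 1.13, the upper end being Krt26. The 10 genes with TTTATG had a median of 0.42 (0.13 to 0.97), and the 7 without it one of 0.51 (0.32 to 1.13). The 13 genes with TATAAA had a median of 0.54 (0.13 to 1.13), and the 4 without it one of 0.32 (0.19 to 0.90). The ranges overlapped for each motif, and no difference was tested. The measured keratins Krt33a, Krt35, Krt74, Krt81, Krt83 and Krt86 had no promoter among the 17. Motif and layer are mixed in these medians. Of the matrix and cortex class, Krt31, Krt33b and Krt34 hold CTTTGAA and only Krt36 lacks it. These matches describe letters in a window and no binding was measured.

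The receptor and the cadherin of the shaft were both higher. Gprc5d, an orphan receptor gene of the hair cortex, was at 8.70 in the ZAG array and 7.81 in the control array, 1.85-fold higher. Dsg4, the desmosomal cadherin of the shaft, whose loss gives lanceolate hair in mice, was at 7.58 with ZAG and 7.07 in control, a difference of 0.51.

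The median difference of the transcription factors was below that of the keratins, with overlap between single genes. Of 7 measured transcription factors, 6 were higher in the ZAG array, with a median of 0.27, and 1 was at least 1.5-fold higher. The median of all 23 measured keratins was 0.51, which is 0.24 above that of the transcription factors (0.15 without 7 close copies among the cortex keratins). Hoxc13 exceeded most keratins, and Krt32, Krt82 and Krt84 lay below the factors' median. Hoxc13, a homeobox factor without which mice grow no lasting hair, was at 6.96 with ZAG and 6.36 in control, 1.51-fold higher, so it only just passed that line. Msx2, a homeobox factor of the matrix, was at 5.80 with ZAG and 5.43 in control (0.38). Lef1, the DNA-binding partner of beta-catenin, was at 6.62 with ZAG and 6.30 in control (0.32).

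The remaining factors were close to equal on the arrays or rest on probes that disagree. Foxn1, the factor mutated in nude mice, was at 6.04 with ZAG and 6.06 in control, a difference of -0.02. Dlx3, a homeobox factor of the shaft and root sheath, was at 8.08 with ZAG and 7.95 in control (0.13). Gata3 differed by 0.13 as well, and its 2 probes gave 0.12 and 0.14. Foxq1, the factor mutated in satin mice, had a mean difference of 0.27, but its 2 probes disagreed in direction, at 0.72 for the brighter and -0.18 for the dimmer, which was only a little above background. Shh, the matrix ligand of hedgehog signalling, was at 2.85 with ZAG and 2.58 in control, below background on both arrays. It is therefore given no fold, and its direction is not read beyond the count and median over the whole set.

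Other genes of the shaft and sheath, from a separate list, were mixed. Of 12 measured, 8 were higher and 4 lower, with a median of 0.45, with 4 genes past 1.5-fold upward and 2 past it downward. Tchhl1, a trichohyalin-like gene, was at 8.43 with ZAG and 7.07 in control (1.36), and the cornified envelope gene Sprr4 at 7.51 with ZAG and 6.53 in control (0.98). Dsg3, a desmosomal cadherin shared with the epidermis, was at 7.91 with ZAG and 8.60 in control (-0.68), and the transglutaminase gene Tgm3, which cross-links proteins of sheath and epidermis, differed by -0.68 too. Of the 51 hair keratin-associated proteins, which embed the keratin filaments of the shaft, 46 were higher and 32 at least 1.5-fold higher, with a median of 0.75, and 2 of the 51 were below background on both arrays. Krtap6-3 (2.84) and Krtap16-3 (1.71) had the largest differences, and Krtap5-2 (-0.27) and Krtap12-1 (-0.09) the lowest.

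Of the other follicle regulators, 34 were measured, with a median of 0.10, and as many were at least 1.5-fold higher (2) as lower (2). The higher ones were Fgf5, the growth factor that ends hair growth (0.81), and Eda, the ectodysplasin ligand of placode formation (0.63). The lower ones were Sox18, a factor of vessels and dermal papilla (-0.91), and Bcl11b, a zinc finger factor of epidermis and follicle (-0.69). The dermal papilla list had a median of -0.29 over 16 genes, of which 6 were higher, 10 lower and 1, Crabp1 (-0.74), at least 1.5-fold lower. Without Sox2 and Prom1, below background on both arrays, 5 were higher and 9 lower. Among 14 genes of the bulge and outer root sheath (median -0.11), 2 were higher and 12 lower. Krt15, a keratin of bulge stem cells, was at 8.72 with ZAG and 8.07 in control (0.66). Barx2 was the other higher gene (0.13), and the lowest differences were those of Tcf7l2 (-0.54) and Nfatc1 (-0.46). Proliferation genes, which dividing matrix cells share with the epidermis, had a median of -0.02 over 25 genes, with none past 1.5-fold in either direction. Their extremes were Bub1 (0.21) and Plk1 (-0.49).

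Keratins made outside the shaft and inner sheath, in epidermis and upper follicle, had a median of -0.08 over 21 genes. Of these, 9 were higher and 12 lower, with 2 past 1.5-fold upward and 4 past it downward. Krt4, Krt13, Krt19 and Krt76 were below background on both arrays, and without them 7 were higher and 10 lower. Krt23 was at 7.50 with ZAG and 6.67 in control (0.84). Krt6b, a keratin of stressed epidermis, was at 9.99 with ZAG and 11.96 in control (-1.97), and its partner Krt16 differed by -1.67. Krt15 and Krt17 stand in both this list and the bulge list.

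Markers of other tissues in the skin sample differed between the arrays beside these genes, and their part in the result was not tested. Adipocyte genes were higher in 9 of 9, with a mean log2 level of 7.65 in the ZAG array and 7.23 in the control array, and 0 were 1.5-fold higher. Sebaceous gland genes were higher in 9 of 11 (mean level 7.32 with ZAG and 7.05 in control), and melanocyte genes in 7 of 10 (5.97 with ZAG and 5.76 in control). Skeletal muscle genes were higher in 10 of 12 (7.39 with ZAG and 7.04 in control), with Myh4 at 1.59 and Myh2 at -1.69. Of these 12, 6 (50%) were at least 1.5-fold higher, a larger share than the 33.3% of the 33 hair genes. A further 2 muscle genes were at least 1.5-fold lower. Fibroblast genes were lower in 8 of 9 (9.07 with ZAG and 9.55 in control), and 4 were at least 1.5-fold lower. Leukocyte genes were lower in 11 of 13 (5.88 with ZAG and 6.40 in control), and 1 of them was below background on both arrays.

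**Figure D4:**
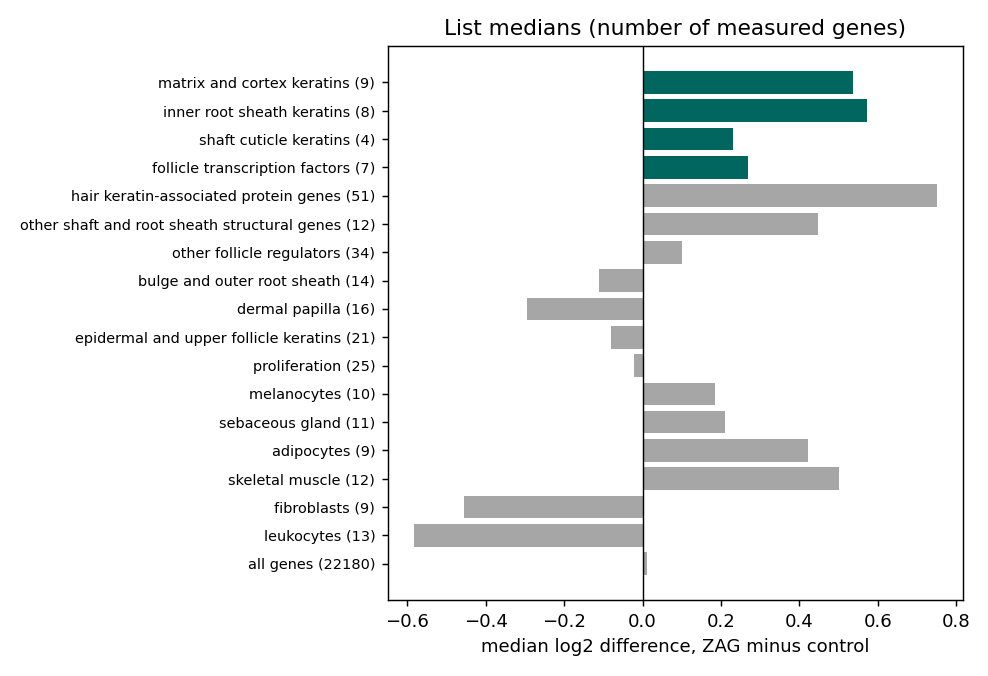
Median log2 difference, ZAG minus control (bars, x axis), of the 4 larger classes described here (green) and of context lists and all genes (grey), with the number of measured genes in brackets. Matrix and cortex (0.54) and inner root sheath keratins (0.57) lie with the keratin-associated proteins (0.75), skeletal muscle (0.50) and adipocytes (0.42) on the right, shaft cuticle keratins (0.23) and transcription factors (0.27) lie nearer to sebaceous gland (0.21) and melanocytes (0.18), and the dermal papilla (-0.29), fibroblasts (-0.46) and leukocytes (-0.58) lie on the left.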

How the data were processed

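The deposited table holds 33793 probes and 2 columns, 1 for ZAG and 1 for control. Its values are on a log2 scale, inferred from the deposited numbers, which run from 0.87 to 13.19 in the ZAG column and from 0.89 to 12.75 in the control column. The column medians were 3.36 and 3.33. RNA was column-purified and sense cDNA was biotin-labelled, per the labels' protocols, and the software and normalization behind the values are not stated in the sources used here. Probes with 1 gene symbol in the platform annotation were used (23521, against 1814 with several and 8458 with none), and probes of a gene were averaged. All 33 member IDs matched the reference table. Of the members, 31 had 1 probe and 2 had 2 probes.

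No test was possible with 1 array per group, and the number of arrays limits the precision. Counts and medians stand beside the same values over all genes. The members and lists were chosen with earlier results of these data known. Every measured member is named, and of each context list at most the 2 highest and 2 lowest genes above background. The averaging and scaling steps were tested on simulated data. Alternatives were median centring, quantile normalization, a loess fit of differences against mean level (span 0.3), the brightest probe, a background filter, a 2-fold threshold and means. The work was done in Python 3.11.15 with pandas 2.3.3 and numpy 2.4.6, the loess with statsmodels 0.14.6 and the plots with matplotlib 3.10.9.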

Additional observations from a re-analysis of the deposited data

How the results depend on the processing

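The direction of the set did not depend on scaling. Under median centring, quantile normalization, loess and the brightest probe, 32 or 33 of the genes were higher, none was 1.5-fold lower, and the median difference lay between 0.45 and 0.51. The number at least 1.5-fold higher lay between 8 (loess) and 12 (brightest probe), since Krt27 (0.56), Krt33a (0.58) and Hoxc13 (0.58) fell just short of the line under loess. The difference between matrix and cortex and inner root sheath medians ran from -0.04 to 0.02 under these scalings and was -0.10 with means. The gap between type I and type II keratin medians ran from 0.07 (quantile normalization) to 0.14. At a 2-fold threshold 1 gene was higher. With means in place of medians, the shaft cuticle class stood at 0.37 and the inner root sheath class at 0.68. An alternative chosen after seeing the data left out Krt31, Krt33a, Krt33b, Krt34, Krt81, Krt83 and Krt86. It gave 7 genes at least 1.5-fold higher, a median of 0.36 over all remaining genes, 0.38 for the 2 remaining matrix and cortex keratins and a difference of -0.19 between that class and the inner root sheath. It stands in for leaving out members of at least 90% protein identity, which was not run because no protein sequences were used here. No paired analysis was possible because each group has 1 array.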
